A study of Mus musculus with 12 samples.

Results

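The choroid plexus is the folded epithelium that hangs into the brain ventricles and secretes cerebrospinal fluid, and ependymal cells are the multiciliated cells that line the ventricles and move that fluid. The 10 genes chosen for them by name were Ttr, Kl, Folr1, Clic6, Kcne2, Aqp1, Otx2, Foxj1, Enpp2 and Slc4a5. A gene was included where a probe set of the array carried its symbol and no other, and it was represented by the probe set with the highest mean signal over all samples. This gave 9 of the 10 genes, out of 18193 genes with such a probe set in all, through 14 probe sets. For Enpp2, which encodes the secreted phospholipase autotaxin, the annotation used names no probe set alone, so it was not analysed here. Of the 9, Kl and Slc4a5 were below the filter on dim genes, so 7 of the 12598 genes tested were among the 10.

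The samples were total RNA of mouse brain tissue read on single-colour oligonucleotide arrays with 12 samples in 4 groups of 3. P5KO were NR3B knockout mice at postnatal day 5, P5WT were wild-type mice at postnatal day 5, P0KO were NR3B knockout mice at birth, and P0WT were wild-type mice at birth. NR3B, encoded by Grin3b, is a subunit of NMDA-type glutamate receptors. The labels name the tissue as brain in one field and as brain with hindbrain and spinal cord in another, and they give no strain, deleted exon, or number of animals per sample. The choroid plexus sits only in the ventricles, and the labels do not give how much ventricle each sample held. They also do not say whether the numbered samples of a group were different animals. Xist, a marker of female tissue, was high in some samples and low in others of P0KO, P0WT and P5KO, so these groups each held more than 1 animal. Whether all 3 samples of a group were different animals is not known. The p-values therefore concern the scatter among these arrays, part of which may be technical.

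Each choroid plexus member has a known part in making, carrying or sensing what the fluid holds. Ttr encodes transthyretin, the carrier of thyroid hormone and retinol, and it is a major secreted product of this epithelium. Folr1 encodes a folate receptor that carries folate across it, Aqp1 a water channel, Kcne2 a potassium channel subunit, Clic6 an intracellular chloride channel protein, Slc4a5 a sodium bicarbonate cotransporter, and Kl the ageing-associated protein klotho, a co-receptor for a fibroblast growth factor. Otx2 is a homeodomain transcription factor needed for choroid plexus development, and Foxj1 is the forkhead factor that switches on the genes of motile cilia.

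Promoters of the members were read for letters bound by OTX, forkhead and RFX factors. RefSeq sequence (GRCm38.p6) of the 250 bases before a start was matched for 5 of the 10 genes, namely Kl, Kcne2, Aqp1, Otx2 and Slc4a5, and promoters of Ttr, Folr1, Clic6, Foxj1 and Enpp2 were not used here. The motifs searched on both strands were TAATCC, the core letters bound by OTX homeodomains, TAAACA, a forkhead core, and GTTGCC, a part of the X-box bound by RFX factors of ciliated cells. Among 27025 promoter windows, 6.38% held TAATCC, 12% held TAAACA and 10.5% held GTTGCC. The 3 windows printed here are those of a channel subunit, a channel and the transcription factor in which a match was found, with the match in capitals and each read 5′ to 3′ on the gene's strand. They are chr16:92292139-92292388 on the plus strand for Kcne2, chr6:55336049-55336298 on the plus strand for Aqp1 and chr14:48665110-48665359 on the minus strand for Otx2.
Kcne2: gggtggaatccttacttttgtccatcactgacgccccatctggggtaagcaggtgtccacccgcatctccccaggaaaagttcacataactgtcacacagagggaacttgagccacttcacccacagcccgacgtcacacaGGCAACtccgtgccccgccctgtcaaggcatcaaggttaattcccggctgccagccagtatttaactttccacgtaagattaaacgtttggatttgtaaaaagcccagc
Aqp1: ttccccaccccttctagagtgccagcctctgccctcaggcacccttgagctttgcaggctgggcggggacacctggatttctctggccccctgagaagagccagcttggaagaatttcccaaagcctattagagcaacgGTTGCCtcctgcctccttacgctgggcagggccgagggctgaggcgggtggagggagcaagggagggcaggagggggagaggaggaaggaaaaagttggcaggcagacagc
Otx2: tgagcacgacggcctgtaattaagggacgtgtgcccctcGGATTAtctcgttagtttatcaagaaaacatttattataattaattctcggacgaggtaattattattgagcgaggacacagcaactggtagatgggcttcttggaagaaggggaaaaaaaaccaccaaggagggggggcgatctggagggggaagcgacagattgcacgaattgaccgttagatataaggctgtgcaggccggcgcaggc
The capitals mark 1 GTTGCC match in the Kcne2 window (printed as its reverse complement), 1 GTTGCC match in the Aqp1 window, and 1 TAATCC match in the Otx2 window (printed as its reverse complement). None of the 3 motifs was found in the windows of Kl, Slc4a5, the other start of Kcne2 and the last start of Otx2, while the first 2 listed starts of Otx2, whose windows overlap, held 1 and 2 matches to GTTGCC. A match is a run of letters and not a site, and a window without one says only that these letters are not in it.

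The libraries were checked before the genes were compared. Grin3b, the targeted gene, read 44.5 ± 4.44 in P5KO and 199 ± 64.8 in P5WT, and 55.7 ± 35.9 in P0KO and 285 ± 79.3 in P0WT (signal, mean ± SD, n = 3 each), with no overlap between the genotypes at either age. The median signal of an array ranged from 605 to 734. P0WT sample 1 stood apart in 18S ribosomal RNA, at 7728 against 48911 to 110512 in the other 11 samples. The median within-group SD of all tested genes, on the log2 scale, was 0.133 in P5KO, 0.119 in P5WT, 0.210 in P0KO and 0.269 in P0WT.

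The data show a set of choroid plexus genes whose levels at birth differed widely from sample to sample within a genotype. In P0KO sample 2 and P0WT sample 2, Ttr, Folr1, Clic6 and Kcne2 were below all 10 other samples on the normalized scale. At P5 the highest sample of a group exceeded the lowest by at most 1.73-fold for these genes. No member passed the test between the genotypes, where 0.00794% of all tested genes passed at P5 and 0.0238% at P0. Otx2 was the only member that passed between the ages, higher at P5 than at P0 in wild type, where 19.4% of all tested genes passed, and its call was lost in 14 of 22 alternative settings. Because the samples are whole tissue, fewer choroid plexus cells and less RNA per cell cannot be told apart.

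Ttr read 136417, 160472 and 161382 in P5KO samples 1, 2 and 3, and 156909, 143544 and 146865 in the P5WT samples in the same order. It read 118110, 52368 and 154970 in P0KO samples 1, 2 and 3, and 136076, 16501 and 147539 in the P0WT samples. The 2 samples numbered 2 at P0 were the lowest of all 12, and of the other 4 P0 samples the 2 numbered 3 lay within the P5 range and the 2 numbered 1 below it. Between the highest and the lowest sample of a group the ratio of deposited signals was 1.18 in P5KO, 1.09 in P5WT, 2.96 in P0KO and 8.94 in P0WT. The 3 other Ttr probe sets also had their lowest signals in these same samples, with ratios of 3.70 to 12.9 in P0KO and 9.07 to 12.5 in P0WT. In all 3 of them P0KO sample 1 and P0WT samples 1 and 3 also lay below every P5 sample, and P0KO sample 3 was the highest of all 12. The widest gap was in the probe set that read 88848 to 116797 in P5KO and 98069 to 115562 in P5WT, against 37067, 9746 and 125259 in P0KO and 58523, 5014 and 62607 in P0WT.

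Quantile normalization gives a probe set the level of its rank on the array, and the Ttr probe set ranked 2 to 3 from the top in P5KO and 1 to 8 in P5WT, which leaves its normalized level little room to vary there. P5KO samples 1 and 2 and P0WT sample 3 share the level 17.35. The SD of Ttr at P5 is therefore better read from the deposited scaling, where it was 0.14 in P5KO, 0.067 in P5WT, 0.81 in P0KO and 1.79 in P0WT (log2, n = 3 each). On the normalized log2 scale the SD of Ttr in P0WT was 1.92 (n = 3), and 10 of the 12598 tested genes had a larger one there.

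**Figure D1:**
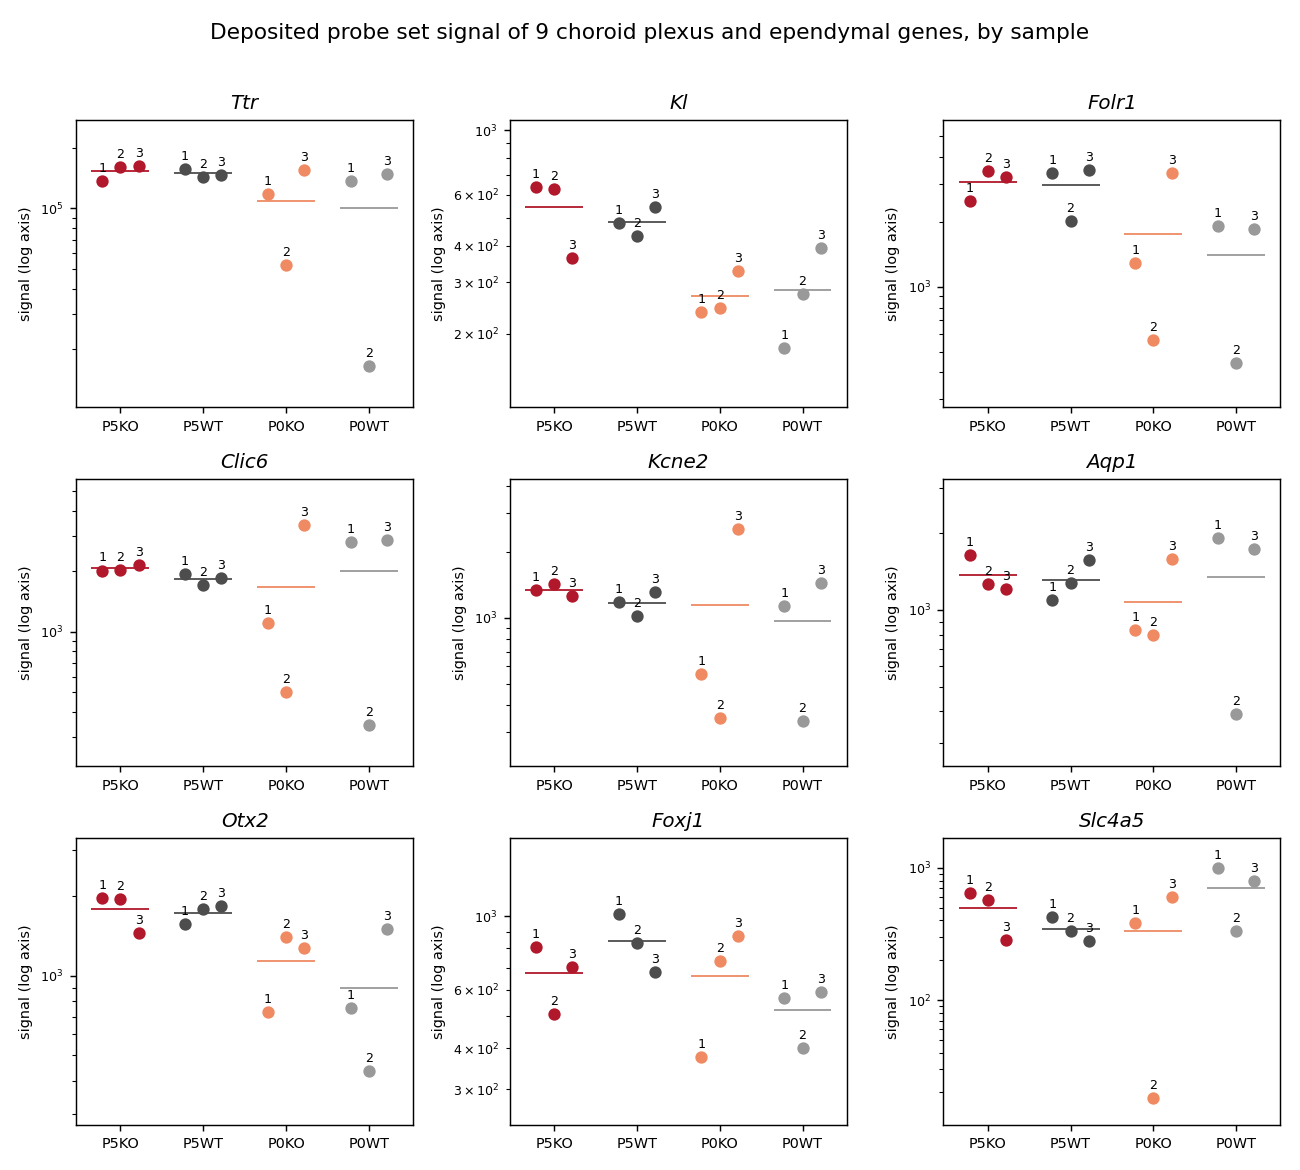
Deposited probe set signal (log axis) of the 9 genes in each sample, with the groups P5KO, P5WT, P0KO and P0WT from left to right, a point per sample marked with its sample number, and a line at the group mean. Samples numbered 2 of P0KO and P0WT lie lowest for Ttr, Folr1, Clic6 and Kcne2, while the P5 points of these genes lie close together.

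Folr1 read 2485, 3439 and 3210 in P5KO samples 1, 2 and 3, and 3369, 2014 and 3483 in P5WT. Its P0 signals were 1291, 566 and 3378 in P0KO and 1915, 441 and 1856 in P0WT. P0KO sample 3 alone among the P0 samples reached the P5 range, and the 2 samples numbered 2 were again lowest. The folate receptor thus spanned a ratio of 5.97 in P0KO and 4.34 in P0WT, against 1.38 in P5KO and 1.73 in P5WT.

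Clic6 had its 3 P5KO samples at 2016, 2023 and 2156 and its 3 P5WT samples at 1937, 1712 and 1857. At birth it read 1109, 502 and 3382 in P0KO and 2792, 345 and 2851 in P0WT. Unlike Folr1, this gene had 3 P0 samples above every P5 sample, namely P0KO sample 3 and P0WT samples 1 and 3. A second Clic6 probe set also had its lowest signal of each P0 group in sample 2, with smaller ratios of 2.09 in P0KO and 2.48 in P0WT, where the probe set used gave 6.74 in P0KO and 8.27 in P0WT.

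Kcne2, on chromosome 16 like Clic6 but between other neighbours (Mrps6 and Smim11 for Kcne2, Rcan1 and Runx1 for Clic6), read 1340, 1427 and 1251 in P5KO and 1178, 1018 and 1310 in P5WT. Its signals were 551, 350 and 2536 in P0KO, and 1127, 336 and 1443 in P0WT. P0KO sample 3 was the highest of all 12 samples, and P0KO sample 2 and P0WT sample 2 were the lowest and nearly alike. The SD on the log2 scale was 1.56 in P0KO, where 22 tested genes had a larger one.

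Aqp1, the water channel, read 1640, 1260 and 1209 in P5KO and 1095, 1275 and 1570 in P5WT. It read 837, 798 and 1591 in P0KO, and 1923, 390 and 1735 in P0WT. P0WT sample 2 was the lowest of all, while P0KO samples 1 and 2 were nearly equal and below all P5 samples. On the normalized scale P0KO sample 1 was the lower of those 2, so the order between them depends on the scaling.

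Slc4a5 and Kl were dim. Slc4a5 read 640, 565 and 282 in P5KO and 425, 331 and 280 in P5WT, and it read 384, 18.2 and 602 in P0KO and 993, 335 and 790 in P0WT. The bicarbonate transporter was lowest of all in P0KO sample 2, and sample 2 was also the lowest of P0WT. Kl read 637, 627 and 363 in P5KO and 478, 432 and 544 in P5WT, against 236, 245 and 328 in P0KO and 179, 274 and 394 in P0WT. Sample 2 of neither P0 group was lowest for Kl, which set it apart in order from the epithelial transport genes. The second Kl probe set read between 12.2 and 312 over all samples, with its highest signal in P0WT sample 2, and did not follow the probe set used.

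Otx2 and Foxj1, the 2 transcription factors, had the order of Ttr in P0WT, with sample 2 lowest and sample 3 highest, but not in P0KO. Otx2 read 1963, 1956 and 1451 in P5KO and 1567, 1791 and 1843 in P5WT, and it read 728, 1401 and 1279 in P0KO and 756, 436 and 1505 in P0WT. P0WT sample 2 was lowest for Otx2 too, but P0KO sample 2 was the highest of its group in deposited signal. Otx2 is also known from the midbrain and the eye, not from the choroid plexus alone. Foxj1 read 809, 507 and 702 in P5KO and 1018, 828 and 678 in P5WT, and it read 375, 735 and 870 in P0KO and 568, 400 and 592 in P0WT. For this ciliary factor P0KO sample 1 was the lowest sample of all 12 and P0KO sample 2 stood with sample 3.

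Counted over the members, the shared order at birth was frequent beside the rest of the array. On the normalized scale, sample 2 was the lowest of P0KO for 4 of the 7 tested members and the lowest of P0WT for all 7 of those tested, against 32.1% and 36.8% of all tested genes. Both samples were lowest of their groups for 4 of 7 members, against 17.8% of all tested genes, and both were below all 10 other samples for the same number, Ttr, Folr1, Clic6 and Kcne2, against 3.24%. P0KO sample 3 was highest of its group for 7 of 7, against 43.2%. With the deposited scaling and all 9 genes the counts were 6 for sample 2 lowest in P0KO, 8 in P0WT, and 8 for sample 3 highest in P0KO. These orders were looked for after the values had been seen, and members of 1 cell type share their source, so they are a description with no test. P0KO sample 2 and P0WT sample 2 also correlated by 0.38 in their deviations from the group means, and the 2 samples numbered 1 at P0 by 0.42.

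The spread between samples was wider at P0 than at P5 for most members, as it was for most tested genes. The within-group SD was larger in P0KO than in P5KO for 8 of the 9 genes and larger in P0WT than in P5WT for all 9, against 70.1% and 79.2% of all tested genes. The exception was Kl in the knockouts, at 0.44 in P5KO and 0.39 in P0KO. A range of more than 3-fold between the highest and lowest sample was found for 5 of 9 genes in P0KO (4 with the deposited scaling) and 6 of 9 in P0WT, against 1.37% and 2.06% of all tested genes. The 9 include the dim Kl and Slc4a5, which were below the filter, so the shares of tested genes are over a set without such genes. Slc4a5 is among the 5 in P0KO, at 21.8-fold, through its signal of 18.2 in sample 2. No member had such a range at P5, against 0.5% of tested genes in P5KO and 0.357% in P5WT.

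**Figure D2:**
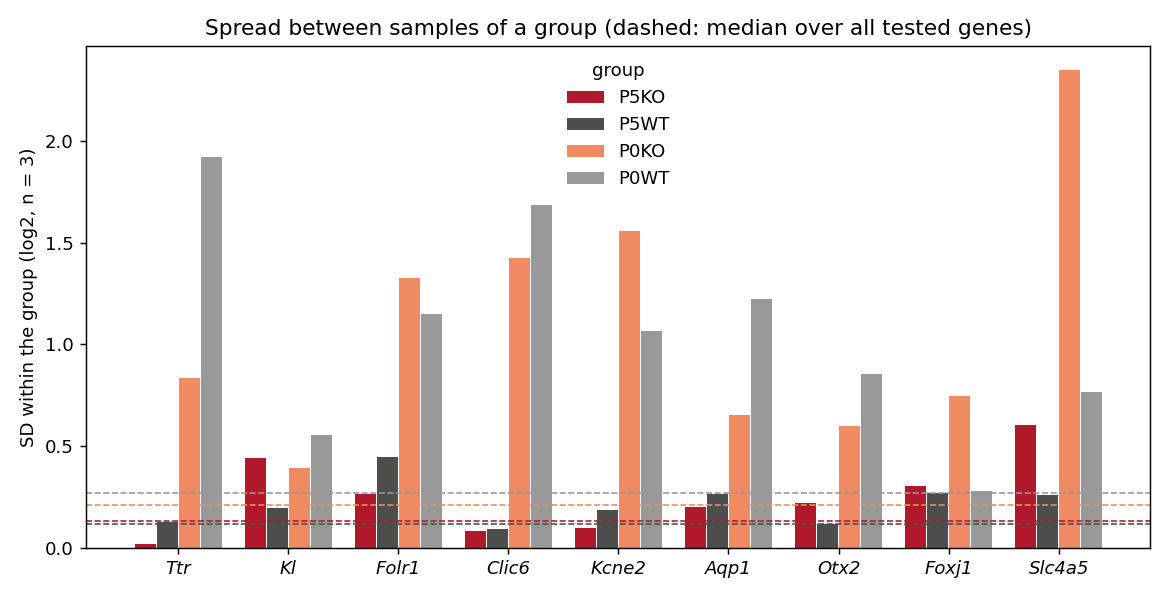
Within-group SD of the log2 signal (n = 3 samples per bar) for each gene in P5KO, P5WT, P0KO and P0WT, with dashed lines at the median SD over all tested genes of each group. Ttr has its tallest bar in P0WT, at 1.92, while its P5KO bar is 0.02 and its P5WT bar 0.12, both set by ranks at the top of the array, where the deposited scaling gives 0.14 in P5KO and 0.067 in P5WT.

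Between the genotypes at P5, 0 of the 7 tested members passed the threshold (adjusted p under 0.05 over all tested genes), where 0.00794% of all tested genes did. The P5KO minus P5WT differences were above 0 for 6 of the 7, against 51.6% of all tested genes, and ran from -0.28 (SE 0.33) for Foxj1 to 0.23 (SE 0.61) for Kcne2, and limma's adjusted p was 0.9998 for each of the 7. At an unadjusted p under 0.05 there were 233 genes, or 1.85% of all tested, and none of the 7 was among them. Clic6 was the only member whose groups did not overlap, which held for 12.9% of tested genes (7.68% with P5KO above P5WT), at 0.20 (SE 0.70) or 1.15-fold (exact permutation p = 0.1, the smallest that 3 against 3 allows). Its second probe set gave 0.30 (SE 0.32) in the same direction. The 95% interval of this difference was -1.31 to 1.71 for Clic6 and -1.34 to 1.52 for Ttr, so changes of more than 2-fold either way lie within them. The errors are pooled over all 4 groups and so include the wide spread at P0.

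At P0 the test again called 0 of 7 members, against 0.0238% of all tested genes, and 4 of 7 differences were above 0, against 59.1%. The P0KO minus P0WT difference was 0.32 (SE 0.66) for Ttr, 0.23 (SE 0.58) for Folr1, -0.17 (SE 0.70) for Clic6, -0.04 (SE 0.61) for Kcne2 and -0.05 (SE 0.47) for Aqp1. The second Clic6 probe set gave 0.16 (SE 0.32), the opposite sign. Among the transcription factors it was 0.53 (SE 0.36) for Otx2 and 0.33 (SE 0.33) for Foxj1. Limma's adjusted p ran from 0.445 for Otx2 to 0.978 for Kcne2, and none of the 7 was among the 2033 genes (16.1%) with an unadjusted p under 0.05. No member separated the genotypes at P0, as 10.2% of tested genes did. In the fit with no filter, Kl gave 0.02 (SE 0.35) and Slc4a5 -1.64 (SE 0.83, adjusted p = 0.399). The Slc4a5 difference rests on the signal of 18.2 in P0KO sample 2: without that sample it was -0.32.

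For Ttr, Folr1, Clic6, Kcne2, Aqp1 and Kl the sign of the P0 difference turned on single samples. Leaving out 1 sample at a time moved the Ttr difference between -0.78 and 0.90, that of Folr1 between -0.46 and 0.87, and that of Clic6 between -1.14 and 0.49. For Kcne2 the span was -0.92 to 0.56 for Aqp1 -0.76 to 0.33 and for Kl -0.27 to 0.28. The sign held for Otx2 (0.12 to 0.97), Foxj1 (0.011 to 0.74) and Slc4a5 (-2.54 to -0.32). The lowest value came without P0WT sample 2 for Ttr, Clic6 and Aqp1, and without P0KO sample 3 for Folr1 and Kcne2. The differences of these 5 genes were all below 0 when either of these samples was left out. No member passed the threshold in any of these fits.

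Averaged over both ages, knockout minus wild type called 0 of 7 members against 0.0238% of all tested genes, with 1087 genes (8.63%) at an unadjusted p under 0.05. The averaged difference was above 0 for 7 of 7, against 59% of tested genes, and none exceeded 0.30. The genotype by age interaction also called 0 of 7 members and 0 genes in all, or 0% of those tested, with 622 genes (4.94%) at an unadjusted p under 0.05. It was above 0 for 3 of 7 members, against 43% of tested genes. No member was among the genes under 0.05 in either comparison.

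**Figure D3:**
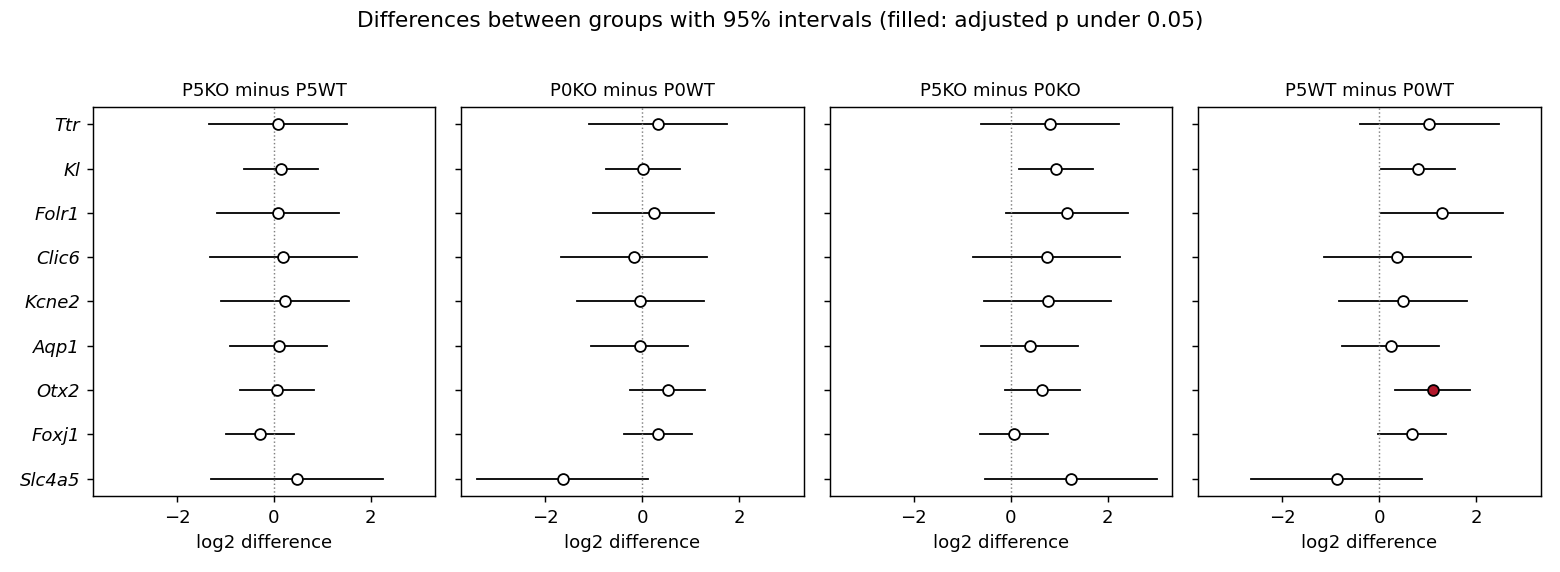
Log2 difference of each gene (point) with its 95% interval (line) for P5KO minus P5WT, P0KO minus P0WT, P5KO minus P0KO and P5WT minus P0WT, a filled point marking an adjusted p under 0.05. Otx2 in P5WT minus P0WT, at 1.11, is the only filled point, and the intervals of most others span 0.

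Between the ages in wild type, Otx2 was the 1 of 7 tested members that passed, where 19.4% of all tested genes did and 10.8% were higher at P5. Its log2 level was 10.74 ± 0.12 in P5WT and 9.63 ± 0.85 in P0WT (SD, n = 3 each). The P5WT minus P0WT difference of 1.11 (SE 0.36), or 2.16-fold, had an adjusted p of 0.0454 by limma and an exact permutation p of 0.1, the smallest possible. The call did not hold without any one of P0WT samples 1 and 2, P0KO sample 2, and each of the 3 P5WT and 3 P5KO samples, with adjusted p values of 0.0514 to 0.123. Without P0WT sample 2 the difference was 0.71 (adjusted p = 0.0982), and without P0WT samples 1 and 2 together it was 0.21 (adjusted p = 0.702). Over 22 alternatives the adjusted p was 0.0083 to 0.702, and it was under 0.05 in 8. The fit pools 1 spread over groups that differ in it, and on simulated data with such spreads it called more unchanged genes in this comparison than the threshold implies. The groups of this comparison were also not balanced for Xist, a marker of female tissue. Xist was at 216 or less in the 3 P5WT samples, and at 18343 and 24932 in P0WT samples 1 and 2. The part of this imbalance was not tested.

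The other 6 tested members also had P5WT minus P0WT differences above 0, as did 52.8% of all tested genes, but none of the 6 passed. The difference was 1.30 (SE 0.58) for Folr1, whose unadjusted p of 0.0432 lay under 0.05 as for 36.1% of tested genes and whose adjusted p was 0.124. It was 1.04 (SE 0.66) for Ttr, 0.68 (SE 0.33) for Foxj1, 0.50 (SE 0.61) for Kcne2, 0.38 (SE 0.70) for Clic6 and 0.24 (SE 0.47) for Aqp1. The median of the 7 was 0.68, against 0.03 over all tested genes. Without P0WT sample 2 the differences of Ttr, Clic6, Kcne2 and Aqp1 were below 0, at -0.06, -0.60, -0.11 and -0.46. All P5WT samples exceeded all P0WT samples for Folr1, Otx2 and Foxj1 of the tested members and for the dim Kl, where 18.4% of tested genes did so. Kl had a difference of 0.80 (SE 0.35, adjusted p = 0.159) and Slc4a5 one of -0.88 (SE 0.83, adjusted p = 0.541) in the fit with no filter.

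In the knockouts 0 of 7 members passed between the ages, against 10.5% of all tested genes, and 5.53% of all tested genes were called higher at P5. The P5KO minus P0KO differences were 1.16 (SE 0.58) for Folr1, 0.81 (SE 0.66) for Ttr, 0.77 (SE 0.61) for Kcne2, 0.74 (SE 0.70) for Clic6 and 0.65 (SE 0.36) for Otx2. Aqp1 had 0.39 (SE 0.47) and Foxj1 0.07 (SE 0.33), so all 7 were above 0, as were 46.6% of tested genes. The median of the 7 was 0.74, against -0.03 over all tested genes. Adjusted p values of the 7 lay between 0.240 and 0.929, and none of the 7 was among the 3164 genes (25.1%) with an unadjusted p under 0.05. On the normalized scale Ttr and Otx2 did not overlap between P5KO and P0KO (exact permutation p = 0.1 each), where 14.6% of tested genes had P5KO above P0KO in this way. In deposited signals Ttr did overlap, since P0KO sample 3 lay above P5KO sample 1. Without P0KO sample 3, Kcne2 was 1.65 and passed (adjusted p = 0.0420). Kl had 0.93 (SE 0.35, adjusted p = 0.152) and Slc4a5 1.24 (SE 0.83, adjusted p = 0.465).

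Other genes of the choroid plexus epithelium were read from a list of 35, of which 34 had a probe set and 27 were tested. Sample 2 was lowest of P0KO for 12 of the 27 (44.4%) and lowest of P0WT for 18 (66.7%), and P0KO sample 3 was highest for 21 (77.8%), against 32.1%, 36.8% and 43.2% of all tested genes. In P0KO, however, sample 1 was lowest more often than sample 2, for 15 of the 27 (55.6%), against 47.1% of all tested genes. Both samples numbered 2 were below all 10 other samples for 5 of the 27 (18.5%), against 3.24%. The summed signal of the 34 was 93308 to 95456 in P5KO and 87189 to 90456 in P5WT, and 70645 to 94057 in P0KO and 64189 to 89837 in P0WT. Bright genes make up much of this sum, first Slc4a10, which read 22654, 16424 and 17965 in P0KO and 25637, 18126 and 19385 in P0WT. The median of the 27 log2 deviations, which weighs the genes alike, was -0.18, -0.16 and 0.63 in P0KO and -0.059, -0.49 and -0.057 in P0WT. By this measure sample 2 was the lowest of P0WT but not of P0KO. Between the ages, 4 of the 27 rose and 1 fell in P5KO against P0KO, and likewise 4 and 1 in P5WT against P0WT, with 0 in either comparison of the genotypes. Of all tested genes 5.53% rose and 4.95% fell in the knockouts, and 10.8% rose and 8.56% fell in wild type, so the wild-type counts lie near the background. The knockout total of 5 was 1 without P5KO sample 2 or 3, 3 without P0KO sample 1 or 2 and 8 without P0WT sample 2, and the wild-type total of 5 was 8 without P0WT sample 2 and 12 with array weights. Rdh5, a retinol dehydrogenase, rose by 0.76 (SE 0.19) in knockout and 0.91 (SE 0.19) in wild type, and Slc12a2, a sodium, potassium and chloride cotransporter, by 0.57 in knockout and 0.54 in wild type (SE 0.13 each). Slc5a5, the iodide transporter, fell by 1.01 (SE 0.24) in knockout, and Sulf1, a heparan sulfatase, fell by 0.79 (SE 0.18) in wild type. All of these have adjusted p values of 0.0198 or less by limma.

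Motile cilia genes, which ependymal cells use, were ordered differently at birth, most clearly in P0WT. Of 54 listed, 52 had a probe set and 32 were tested. P0WT sample 2 was lowest for 6 of the 32 (18.8%) and highest for 19 (59.4%), against 36.8% and 40.8% of all tested genes. P0KO sample 1 was lowest for 25 (78.1%) and P0WT sample 1 for 19 (59.4%), against 47.1% and 38.4%, and both samples numbered 2 were below all others for 0. In P0KO the list was partly like the other choroid plexus genes. P0KO sample 3 was highest for 24 of the 32 (75%), against 77.8% of that list and 43.2% of all tested genes. P0KO sample 1 was most often lowest in both lists, at 78.1% and 55.6%, while P0KO sample 2 was lowest for 18.8% and 44.4%. The order of Foxj1 in P0KO was that of most motile cilia genes, with sample 1 lowest and sample 3 highest, whereas in P0WT Foxj1 had sample 2 lowest. In P5WT against P0WT 5 of the 32 rose and 2 fell, near the 10.8% and 8.56% of all tested genes. The total of 7 was 1 to 3 without P0WT sample 1 or 3 or any one P5WT sample, 11 without P0WT sample 2 and 15 with array weights. Among those that rose were Myb at 1.66 (SE 0.28) and Dynlrb2, a dynein light chain, at 1.27 (SE 0.30). In P5KO against P0KO Myb was the 1 of 32 that rose, by 1.31 (SE 0.28, adjusted p = 0.00899), and 0 fell, against 5.53% and 4.95% of all tested genes.

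**Figure D4:**
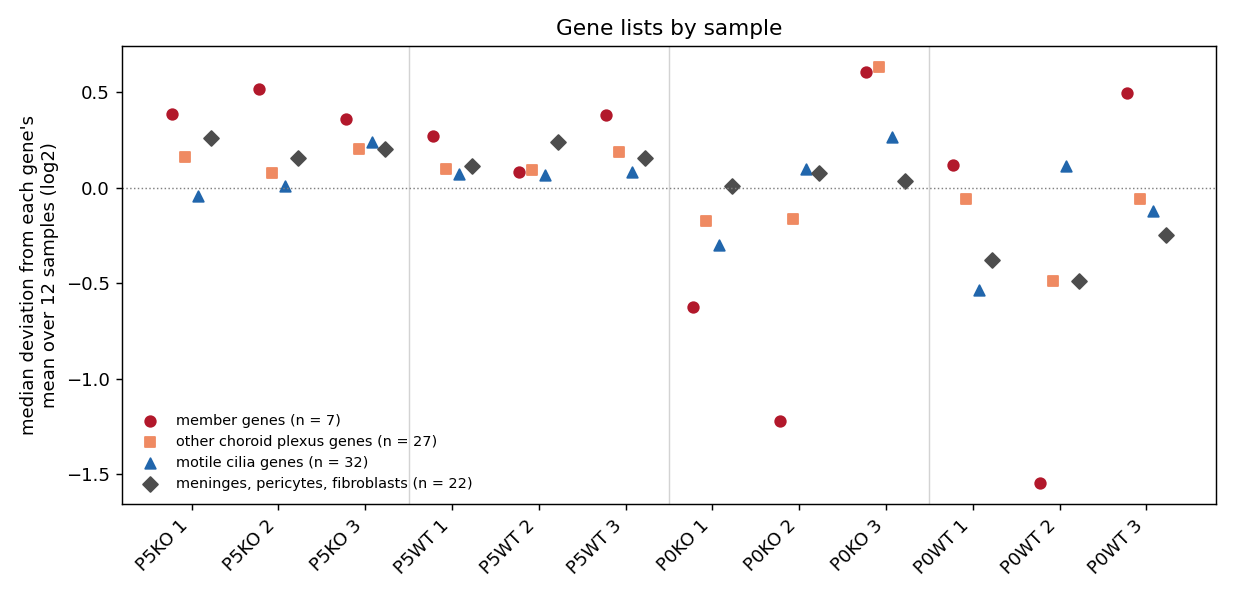
Median over each list's tested genes of the log2 deviation from the gene's mean over 12 samples, plotted for every sample with P5KO, P5WT, P0KO and P0WT from left to right. The members are at -1.22 in P0KO sample 2 and -1.55 in P0WT sample 2, where the motile cilia genes are at 0.10 and 0.11.

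Genes that handle what the members carry, namely folate, retinol, thyroid hormone and lysophosphatidic acid, were read from a list of 24 with 12 tested. In P5WT against P0WT 3 rose and 0 fell, against 10.8% and 8.56% of all tested genes. They were Lpar1, a lysophosphatidic acid receptor, by 1.01 (SE 0.17), Dio2, which activates thyroid hormone, by 1.22 (SE 0.25), and Rbp4, the plasma retinol carrier that binds transthyretin, by 1.19 (SE 0.25). In P5KO against P0KO Lpar1 rose by 0.95 (SE 0.17) and Dio2 by 1.13 (SE 0.25), and Rbp4 had 0.70 (SE 0.25, adjusted p = 0.0981). The count of 2 of 12 in the knockouts, where 5.53% of all tested genes rose, was 1 without P5KO sample 2. None of the 12 passed between the genotypes at either age.

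Tested genes outside the member list were ranked by the correlation of their log2 level over the 12 samples with the mean standardized level of the 6 tested choroid plexus members. The 6 highest were Cldn2 (r = 0.97), Sgk3 (0.95), Nudt6 (0.95), Slc2a12 (0.94), Cenpj (0.93) and Rasgrp3 (0.92), all given as a description over samples that share age and genotype. Cldn2, a tight junction claudin of the choroid plexus, read 811, 974 and 660 in P5KO and 761, 570 and 903 in P5WT. At birth it read 372, 192 and 1018 in P0KO, and 924, 30.8 and 636 in P0WT. Foxj1, which is not part of that mean, had r = 0.59 with it. The 6 members that make up the mean had 0.75 for Otx2 and 0.93 to 0.95 for Ttr, Folr1, Clic6, Kcne2 and Aqp1. Their own part in the mean raises these values, so they are not measured like that of Foxj1. The 4 genes most like Foxj1 were Erich3 (0.93), Msx1 (0.92), Adgra2 (0.90) and Farp2 (0.89), and Msx1 is also on the list of other choroid plexus genes.

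Other measures that moved with these samples are set beside them here, and their part in the result was not tested. Xist, which marks female tissue, was at 16450 to 24932 in P0KO samples 1 and 2 and P0WT samples 1 and 2, and at 21367 in P5KO sample 2, while in the other 7 samples it was at 239 or less. The samples with high Xist had Ttr signals of 118110 and 52368 in P0KO, 136076 and 16501 in P0WT, and 160472 in P5KO. The P0 samples with low Xist, numbered 3, had Ttr at 154970 in P0KO and 147539 in P0WT, the highest of each group. The ratio of the 3′ to the 5′ Actb probe set was 1.58 in P0KO sample 3 and 1.48 in P0WT sample 3, and 1.19 to 1.28 in the other 10 samples. A spiked control transcript was brightest in P0KO sample 1, at 316201, and P0WT sample 2, at 272933, against 149843 to 200068 in the others.

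Markers of neighbouring tissues, whose part was not tested either, were summed in the same samples. All 22 meningeal, pericyte and fibroblast genes were tested, and their summed signal was 225762 to 244246 in P5KO and 211520 to 249412 in P5WT. It was 182855 to 216165 in P0KO and 115528 to 138776 in P0WT, with P0KO sample 2 the highest of its group and P0WT sample 2, at 131808, between the other P0WT samples. Much of this order is that of the bright Ptgds, which read 66463, 88469 and 82562 in P0KO and 22216, 51620 and 36679 in P0WT. The median of the 22 log2 deviations, which weighs the genes alike, was 0.012, 0.077 and 0.037 in P0KO and -0.38, -0.49 and -0.25 in P0WT, so that P0WT sample 2 was lowest. Gene by gene, sample 2 was lowest of P0WT for 45.5% of the 22 and sample 1 for 45.5% as well, against 36.8% and 38.4% of all tested genes. For 9.09% of the 22 both samples numbered 2 were below all 10 others, against 3.24% of all tested genes. Red blood cell genes, 7 of 10 with a probe set, summed to 5484 to 8527 in P5KO and 4113 to 6305 in P5WT, and to 3154 to 4848 in P0KO and 1609 to 2244 in P0WT. For them P0WT sample 2 was the highest of its group and P0KO sample 2 the lowest. Endothelial genes, 13 of 14 tested, summed to 36707 to 40739 in P5KO and 36642 to 38715 in P5WT, and to 30582 to 35384 in P0KO and 28347 to 32237 in P0WT, with sample 2 lowest in both P0 groups. Sample 2 was lowest of P0KO for 38.5% of the 13 and of P0WT for 61.5%, against 32.1% and 36.8% of all tested genes. P0KO sample 3 was highest for 76.9%, against 43.2%. These shares were near the 44.4%, 66.7% and 77.8% of the other choroid plexus genes. Both samples numbered 2 were below all 10 others for 7.69%, against 18.5% of that list and 3.24% of all tested genes. Liver genes, 10 of 12 with a probe set, summed to 3351 to 3631 in P5KO and 2949 to 3740 in P5WT, and to 2177 to 3667 in P0KO and 1488 to 2582 in P0WT. The brightest of them was Rbp4, which is also on the list of folate, retinoid and thyroid hormone partners. It read 1620 to 2152 in P5KO and 1452 to 1785 in P5WT, and 863 to 1346 in P0KO and 485 to 909 in P0WT. Eye genes, 10 of 11 with a probe set, summed to 6206 to 6961 in P5KO and 6462 to 7066 in P5WT, and to 3806 to 5063 in P0KO and 3650 to 4550 in P0WT. Alb, which encodes the main plasma protein of liver, read 288 or less in every sample, and the eye markers Rpe65 and Cryaa read 301 or less and 65.7 or less. Other genes of these lists, named after their values were seen, were brighter. Apoa1, a plasma apolipoprotein, read 866 in P0KO sample 2 and 743 in P0WT sample 2, the highest of each group, with 236 and 697 in P0KO samples 1 and 3 and 160 or less in P0WT samples 1 and 3, and 42.3 to 142 in P5KO and 46.0 to 276 in P5WT. Rlbp1, a retinal binding protein, read 3202 to 3479 in P5KO and 3080 to 3302 in P5WT, and 1510, 2010 and 1843 in P0KO and 1168, 2203 and 1168 in P0WT, again highest in sample 2 of each P0 group. Mitf, a pigment cell factor, read 1528 to 1832 in P5KO and 1718 to 2273 in P5WT, and 939, 803 and 1162 in P0KO and 992, 828 and 871 in P0WT. In these deposited signals it was lowest in sample 2 of each P0 group. On the normalized scale sample 2 was not the lowest of P0WT for Mitf, so that order depends on the scaling.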

How the data were processed

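The authors deposited 1 table of linear probe set intensity (signal) for the series, made with software not given in the sources used here. Each array had been scaled, since its mean trimmed by 2% at either end was 2500.01. Of 45101 probe sets, 64 were controls, 34945 had a single gene symbol in the platform annotation, 932 had several and 9160 had none, and 34741 of the first kind matched the RefSeq gene table of GRCm38.p6.

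Signals were taken as log2(signal + 16) and quantile-normalized, because array medians spread over 0.27, and this scale understates the change of dim genes. Each gene kept its probe set with the highest mean signal, and genes under the 40th percentile of mean log2 signal (8.72) were left out. Group means were fitted in limma 3.58.1 (R 4.3.3) over the 12 samples together (intensity trend, 8 residual and 5.59 prior degrees of freedom). P-values were adjusted by Benjamini-Hochberg over the 12598 genes tested, with a threshold of 0.05, and members below the filter got their values from a fit over all genes. A difference is the first-named group minus the other on the log2 scale, a fold is 2 to the power of its size, and intervals are 95%. Exact permutation tests were two-sided. On simulated data with each gene's own spread in each group, the fit recovered most of the larger changes, but in every comparison other than P5KO minus P5WT it called more unchanged genes than the threshold implies.

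The members, the gene lists and the settings were chosen with earlier results of these data known. The text names all members, up to 4 genes of a list with the smallest p in the comparison discussed, the 6 genes most like the choroid plexus members and the 4 most like Foxj1, the targeted gene, and control and sex-linked probe sets. Any other gene named (the neighbours of Kcne2 and Clic6, Slc4a10, Alb, Rpe65, Cryaa, Ptgds, Apoa1, Rlbp1 and Mitf) serves as an annotation or a marker. The other lists were of oligodendrocyte lineage, astrocyte and midbrain genes. Of these, 11 of 13 tested oligodendrocyte genes rose in P5KO against P0KO and 12 in P5WT against P0WT, 6 of 10 astrocyte genes did in the knockouts and 5 in wild type, and 1 of 4 midbrain genes rose and 2 fell in each. Of all tested genes 5.53% rose and 4.95% fell in the knockouts, and 10.8% rose and 8.56% fell in wild type. Same-numbered samples of different groups correlated in their deviations from the group means by -0.13 to 0.42, and the numbers were not taken to pair the samples. The highest values were at P0, at 0.42 between the samples numbered 1 and 0.38 between those numbered 2, with 0.056 between those numbered 3. For 8 samples the closest sample of another group had the same number. The cause was not tested. No 2 arrays were alike to the point of being one library (highest correlation 0.985). Alternatives were the deposited scaling, other offsets and filters, every probe set tested, fits to the groups compared, array weights, the sample number as a block, and leaving out samples.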

Additional observations from a re-analysis of the deposited data

How the results depend on the processing

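The 12 arrays, 3 a group, limit the precision, and dim genes such as Kl and Slc4a5 have the least certain values. Between the genotypes, at either age, averaged or as the interaction, 0 members changed under every alternative that was run. The 1 member changed in P5WT minus P0WT became 0 with no filter, with every probe set tested, with only the groups compared, with array weights, and without P0WT samples 1 and 2 together, became 2 with the sample number as a block (replicate block, adding Folr1), and was 0 to 1 when leaving out single samples. In P5KO minus P0KO the count of 0 was 0 to 1 when leaving out single samples. The block changed no other call of a member. The cause of these changes was not tested. Array weights were 0.36, 0.19 and 2.45 for P0WT samples 1, 2 and 3, and several signs turned under them. P0KO minus P0WT was then -0.80 for Ttr, -0.23 for Kl and -0.50 for Folr1, P5WT minus P0WT was -0.43 for Clic6, -0.13 for Kcne2 and -0.30 for Aqp1, and P5KO minus P0KO was -0.085 for Foxj1. Without P0WT samples 1 and 2 together, P0KO minus P0WT was -0.80 for Ttr, -0.51 for Kl, -0.42 for Folr1 and -0.37 for Otx2, and P5WT minus P0WT was -0.091 for Ttr, -0.62 for Clic6, -0.30 for Kcne2 and -0.40 for Aqp1. With the deposited scaling Kl was -0.0084 in P0KO minus P0WT. Leaving out single samples gave these spans where a sign turned: in P0KO minus P0WT, Ttr -0.78 to 0.90, Kl -0.27 to 0.28, Folr1 -0.46 to 0.87, Clic6 -1.14 to 0.49, Kcne2 -0.92 to 0.56 and Aqp1 -0.76 to 0.33. In P5KO minus P5WT they were Folr1 -0.17 to 0.24, Aqp1 -0.024 to 0.24 and Otx2 -0.0064 to 0.19. In P5WT minus P0WT they were Ttr -0.063 to 1.62, Clic6 -0.60 to 0.87, Kcne2 -0.11 to 0.89 and Aqp1 -0.46 to 0.63, and in P5KO minus P0KO Foxj1 -0.34 to 0.39 and Slc4a5 -0.091 to 2.14. Counts of changed list genes were 2 to 12 (other choroid plexus), 1 to 15 (motile cilia) and 2 to 4 (folate, retinoid and thyroid partners) in P5WT minus P0WT over the alternatives, and 1 to 8, 0 to 2 and 1 to 3 in P5KO minus P0KO.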

Other observations

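Some genes outside the members had an unadjusted p under 0.05 by limma in single comparisons without passing the test, and examples are given here. Among other choroid plexus genes, Sostdc1, a secreted antagonist of BMP signalling, differed by 0.44 (SE 0.15) in knockout minus wild type averaged over both ages (unadjusted p = 0.00921, adjusted p = 0.576 by limma). Rdh5 differed by 0.39 (SE 0.13) in the same comparison (adjusted p = 0.576). Among motile cilia genes, Mlf1 was at 10.76 in P0KO and 10.16 in P0WT on the log2 scale, a difference of 0.60 (SE 0.20, adjusted p = 0.287), and Tmem212 at 9.10 in P0KO and 7.81 in P0WT, a difference of 1.29 (SE 0.51, adjusted p = 0.290). Crabp2, a retinoic acid binding protein also expressed in the meninges, was at 11.29 in P0KO and 10.30 in P0WT (difference 0.99, SE 0.27, adjusted p = 0.284), and at 10.72 in P5KO and 10.90 in P5WT. The signals of Cldn2 spanned 660 to 974 in P5KO and 570 to 903 in P5WT.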
